A study of Mus musculus with 4 samples.

Results

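The lysosomal proteases known as cathepsins, together with legumain, were followed through the immune cells of mouse tumours as 10 genes: Ctsa, Ctsb, Ctsc, Ctsd, Ctsh, Ctsl, Ctss, Ctsw, Ctsz and Lgmn. They were taken by gene symbol from the 32285 genes of the count tables, and all 10 were found. The tumours grew under the skin from injected MC38 cells, a mouse colorectal tumour line, in mice aged 8 weeks. The cKO group carried a conditional knockout of Trim25, which encodes a ubiquitin ligase, and the WT group was of wild-type mice given the same tumour cells. The series title places the loss of Trim25 in T cells; the sources used here give neither the Cre line nor the deleted exons. CD45-positive cells were sorted and profiled by droplet-based single-cell RNA sequencing in 4 libraries, 2 for each genotype, here called cKO-1, cKO-2, WT-1 and WT-2. The labels name the tissue as colon and the cell type as a tumour line, whereas the sorted cells were mostly immune cells by their markers. The labels do not state whether each library is a different animal, and a p-value here therefore reflects only how these samples vary, which may be technical variation.

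Cathepsins are made as inactive precursors and act mostly in the acid compartments of the endosome and lysosome, where they break down proteins and trim other enzymes into their active form. Most of those followed here are cysteine proteases of the papain family; cathepsin D is an aspartic protease, cathepsin A a serine carboxypeptidase, and legumain an asparaginyl endopeptidase of a separate family that also cuts cathepsin precursors. In macrophages and dendritic cells they degrade engulfed material and prepare antigen, and cathepsin S removes the invariant chain from MHC class II. In killer lymphocytes cathepsin C activates the granzymes of the cytotoxic granule, and cathepsin W is a protease found mainly in NK and CD8 T cells.

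The starts of the genes were compared by their letters. RefSeq windows on GRCm38.p6, reaching from 250 bases before the transcript start to 50 after it, were matched by symbol for 7 of the 10 genes, in 9 windows; Ctsb, Ctsh and Ctsw had none. Each was searched for CACGTG, the core of the element bound by the lysosomal regulator TFEB, and for GAGGAA on either strand, a core bound by the myeloid factor PU.1. CACGTG reads the same on both strands and occurred in 7.15% of all 32851 windows, and GAGGAA in 28.3%. Counted by gene, the shares were 8.09% and 31.3% of 27025 genes. Among the 7 genes, CACGTG was present for Ctsa, Ctsd, Ctsl and Lgmn, GAGGAA for Ctsc and Ctss, and neither for Ctsz. For Ctsa and Lgmn the match was in 1 of 2 windows. GAGGAA in 2 of 7 genes is near its share over all genes. The windows of 4 genes are shown, a pair with each motif, with the matches in capitals (TTCCTC is GAGGAA on the other strand). They lie at chr3:95526536-95526835 (plus strand) for Ctss, chr7:88277835-88278134 (plus) for Ctsc, chr7:142387778-142388077 (minus) for Ctsd and chr13:64370471-64370770 (minus) for Ctsl.
Ctss: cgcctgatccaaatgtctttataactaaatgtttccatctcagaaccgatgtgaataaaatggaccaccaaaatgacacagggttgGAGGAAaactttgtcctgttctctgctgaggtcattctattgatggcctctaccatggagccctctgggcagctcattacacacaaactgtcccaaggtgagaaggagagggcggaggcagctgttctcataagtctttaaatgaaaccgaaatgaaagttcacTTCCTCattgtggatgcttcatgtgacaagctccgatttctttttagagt
Ctsc: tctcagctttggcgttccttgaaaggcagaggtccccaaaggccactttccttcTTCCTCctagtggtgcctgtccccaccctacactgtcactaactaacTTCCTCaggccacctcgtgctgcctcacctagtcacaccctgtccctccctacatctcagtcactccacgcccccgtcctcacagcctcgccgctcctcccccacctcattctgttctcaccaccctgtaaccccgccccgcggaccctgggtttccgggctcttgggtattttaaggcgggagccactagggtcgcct
Ctsd: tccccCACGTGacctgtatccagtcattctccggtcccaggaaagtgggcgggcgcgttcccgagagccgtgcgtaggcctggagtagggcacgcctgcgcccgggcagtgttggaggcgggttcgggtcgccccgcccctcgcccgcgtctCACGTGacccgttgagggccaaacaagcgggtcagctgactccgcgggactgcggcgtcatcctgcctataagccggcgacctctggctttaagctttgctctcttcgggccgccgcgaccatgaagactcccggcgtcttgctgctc
Ctsl: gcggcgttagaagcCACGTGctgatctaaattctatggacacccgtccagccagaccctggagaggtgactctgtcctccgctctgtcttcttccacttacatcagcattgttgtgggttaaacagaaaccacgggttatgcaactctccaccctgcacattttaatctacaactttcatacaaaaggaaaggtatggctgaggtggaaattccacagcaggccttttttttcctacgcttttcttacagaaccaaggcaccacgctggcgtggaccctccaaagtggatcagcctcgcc
The CACGTG matches of Ctsd began 245 and 98 bases before the start and that of Ctsl 236 bases before it. In Ctss the first GAGGAA match began 164 bases before the start and the other at its first base, and in Ctsc they began 196 and 149 bases before it. A match is a description of the letters and not evidence that a factor binds there.

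The count tables held 40890 cell barcodes, and 39906 cells were kept. Depth was 101176581 UMIs in cKO-1, 115111783 in cKO-2, 96751399 in WT-1 and 127449324 in WT-2, with median UMIs per kept cell between 7795.5 and 10017.0. Any pair of libraries shared 42 to 59 barcodes. Markers placed 32546 cells in 16 classes, 5067 cells stayed unnamed and 2293 were set apart as mixed droplets; class names below mean cells that resemble that type, so macrophages are macrophage-like cells. The largest classes were macrophages (7849 cells), monocytes (7282) and NK cells (3525), and the smallest were neutrophils (268) and mast cells or basophils (130). Trim25 itself stood at 48.6 and 43.1 CPM (the gene's UMIs per 1000000 UMIs of the same cells and library) in cKO and 64.0 and 59.9 in WT libraries in CD8 T, CD4 conventional T and Treg cells together, so both cKO libraries were below both WT libraries. So were CD8 T and Treg cells taken alone, whereas CD4 conventional T cells overlapped (64.8 and 54.1 in cKO, 60.4 and 74.5 CPM in WT). A 3' tag outside the deleted exons cannot check a knockout.

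Levels below are given as mean ± SD over all 4 libraries. By the kit named in the labels UMIs count 3' ends, and they were not scaled to transcript length. Levels are therefore compared between classes and not between genes. The classes are clusters of these same cells, and their levels are therefore described without a test. The 10 genes together took 1.54% of all UMIs in macrophages, with a range of 1.51% to 1.57% over the libraries, and 0.933% in monocytes. They took 0.138% in NK cells and 0.119% in the fibroblast or tumour-like cells, the lowest 2 classes. Macrophages had the highest level of 6 genes, Ctsa, Ctsb, Ctsc, Ctss, Ctsz and Lgmn. Plasmacytoid dendritic cells had the highest level of Ctsh and Ctsl, NK cells of Ctsw, and mast cells or basophils of Ctsd. The map of mean levels by class shows these 4 patterns.

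**Figure D1:**
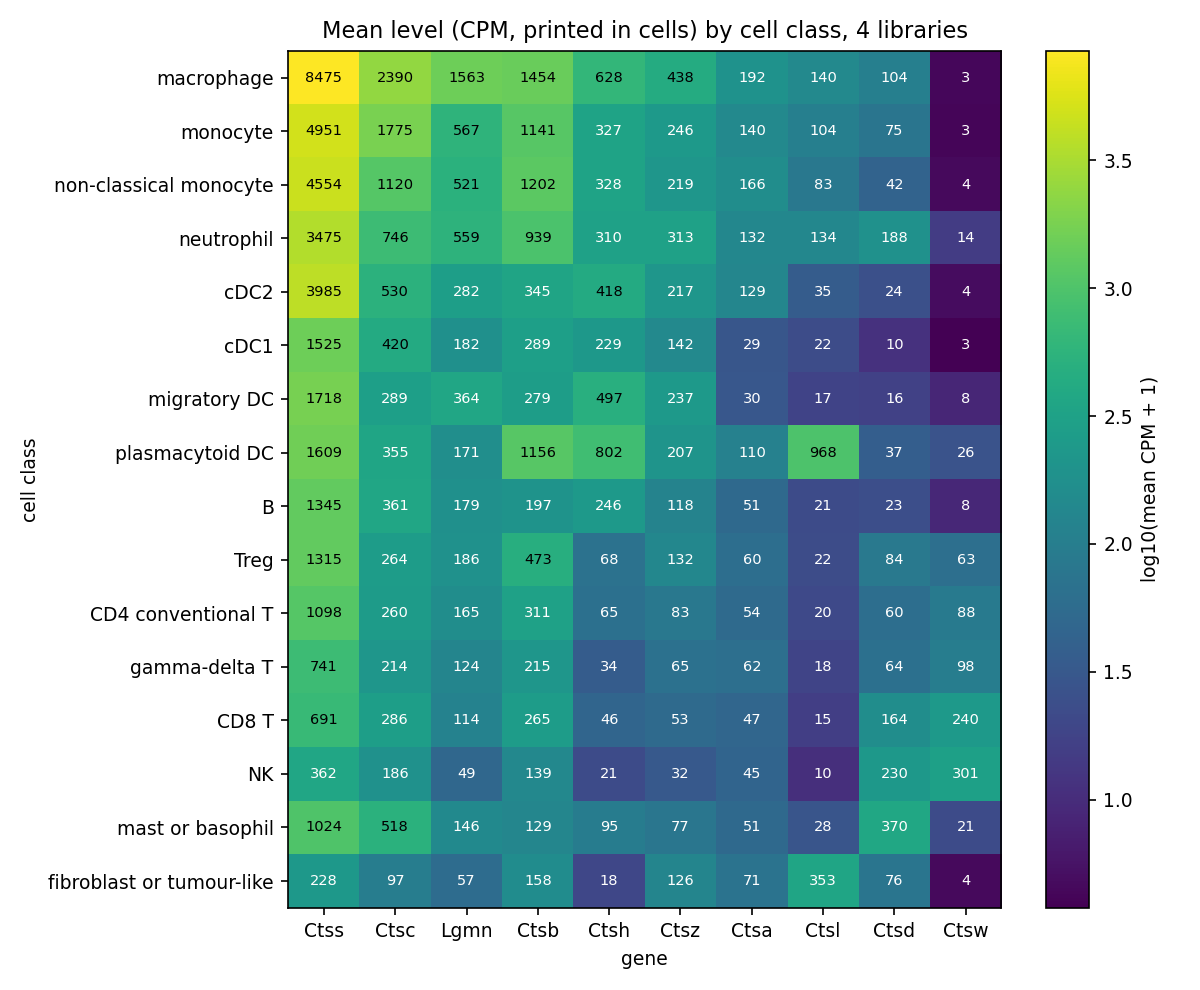
Mean level of each gene (columns, CPM over 4 libraries, printed in each cell) in each of 16 cell classes (rows); the colour is log10(CPM + 1). Macrophages lead for 6 genes, plasmacytoid DC for Ctsh and Ctsl, NK cells for Ctsw and mast cells or basophils for Ctsd.

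Of the endopeptidases that prepare antigen, Ctss, on chr3:95526786-95556403, was at 8475.0 ± 255.9 CPM in macrophages, 4950.6 ± 148.2 in monocytes and 4553.7 ± 223.8 in non-classical monocytes. Conventional dendritic cells of type 2 followed at 3985.3 ± 102.9 CPM, and the lowest level was 228.1 ± 81.4 in fibroblast or tumour-like cells. The ranges of monocytes and non-classical monocytes overlapped, and macrophages stood above both in all 4 libraries. Macrophages held 37.3% of a library's Ctss UMIs on average and monocytes 24.4%. Lgmn, the legumain gene on chr12:102394084-102439813, was more concentrated: 1563.2 ± 69.0 CPM in macrophages against 566.9 ± 83.9 in monocytes and 558.8 ± 81.4 in neutrophils, and macrophages held 46.3% of its UMIs. Monocytes, neutrophils and non-classical monocytes (520.6 ± 38.1 CPM) were not separated by their ranges. Neutrophils were only 268 cells, and the source of their Lgmn RNA was not tested. Ctsb, on chr14:63122462-63145923, encodes cathepsin B, which cuts both within chains and at their ends. Its level was 1453.5 ± 77.4 CPM in macrophages, with non-classical monocytes (1201.5 ± 29.3), plasmacytoid DC (1156.1 ± 13.6) and monocytes (1141.0 ± 152.8) overlapping one another below. Among lymphocytes, Treg cells had the most Ctsb, at 473.2 ± 103.7 CPM, against 139.3 ± 1.42 in NK cells.

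Ctsl, on chr13:64359337-64370890, had a pattern unlike that of the other endopeptidases. Cathepsin L removes the invariant chain in thymic epithelium and, with other proteases, cuts the endosomal nucleic acid receptors TLR7 and TLR9. Its level was 967.9 ± 81.1 CPM in plasmacytoid DC, with single libraries between 876.2 and 1050.7. Fibroblast or tumour-like cells followed at 352.8 ± 50.7 CPM, macrophages at 140.4 ± 7.67, and NK cells were lowest at 9.57 ± 1.06. The plasmacytoid range did not touch that of any other class. At least 1 Ctsl UMI was seen in 94.3% of plasmacytoid DC and 10.0% of NK cells, with median depths of 12279.0 and 10034.0 UMIs per cell, and after every cell was thinned to 2000 UMIs in 75.8% and 2.28%. Plasmacytoid DC, with 795 cells, held 20.2% of Ctsl UMIs on average (9.48% and 23.7% in the cKO and 20.3% and 27.2% in the WT libraries). Macrophages held 23.7% (25.0% and 24.0% in cKO, 27.4% and 18.5% in WT), so the order of these classes turned round in WT-2. In cKO-1 the fibroblast or tumour-like cells held the most of any class, 26.5%. Of the receptor genes, Tlr7 was also highest in plasmacytoid DC, at 239.8 ± 29.6 CPM, whereas Tlr9 was low in every class, at 2.68 ± 1.09 CPM in plasmacytoid DC and 3.50 ± 0.394 in macrophages, the highest. Ctsl shares 26.8% of its exon bases with an antisense gene, Gm47123, which was at 0.78 CPM over all cells, and 6.09% with a pseudogene on its own strand that was not analysed here.

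The exopeptidases trim proteins from their ends. Ctsc, on chr7:88278085-88310888, encodes the dipeptidyl peptidase that activates granule serine proteases, and its level was 2389.6 ± 93.8 CPM in macrophages, 1775.4 ± 119.8 in monocytes and 1120.2 ± 64.3 in non-classical monocytes, 3 ranges that did not overlap. Its level in NK cells, 186.5 ± 4.23 CPM, was lower than in any other class but the fibroblast or tumour-like cells, while 8 of the 13 listed granule proteases that cathepsin C is known to activate, or that are close relatives of such proteases, were highest in NK cells. Gzmb, for instance, was at 7554.3 ± 511.5 CPM in NK cells and 46.5 ± 10.8 in macrophages. Ctsh, on chr9:90054152-90076089, encodes an aminopeptidase. Plasmacytoid DC led at 802.2 ± 31.3 CPM, before macrophages (627.7 ± 19.5), migratory DC (496.6 ± 42.4) and type 2 DC (417.5 ± 3.46), and the ranges of these 4 classes were apart from one another. Ctsz, on chr2:174427493-174439039, encodes the carboxypeptidase cathepsin X. Macrophages (438.0 ± 30.6 CPM) and neutrophils (313.4 ± 93.1) overlapped in range at the top, and NK cells were lowest at 31.8 ± 2.20. Ctsa, on chr2:164832873-164841032, encodes protective protein, which holds the sialidase Neu1 and the galactosidase Glb1 in a stable complex. Ctsa was the most even of the 10 by the ratio of its highest to its lowest class, 6.63, with 192.0 ± 10.3 CPM in macrophages and 28.9 ± 8.17 in type 1 DC. Neu1 was at 30.7 ± 2.65 CPM in macrophages, and Glb1 at 21.2 ± 1.15, against 50.1 ± 8.30 in CD4 conventional T cells.

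Ctsd, on chr7:142375911-142388038, encodes the aspartic protease cathepsin D. Its measured order put mast cells or basophils first (370.2 ± 91.7 CPM), then NK cells (229.9 ± 10.8), neutrophils (188.1 ± 49.6) and CD8 T cells (164.2 ± 33.4). Macrophages came next at 103.9 ± 4.66 CPM, and type 1 DC were lowest at 10.3 ± 2.09. The mast or basophil value rests on 43 and 65 UMIs in the cKO libraries and 44 and 62 in the WT libraries. Levels of Ctsd are uncertain, since 34.4% of its exon bases are shared on the same strand with another gene, Gm49369, which was not analysed here. The sources used here do not say how reads that match both genes were counted.

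Ctsw, on chr19:5465043-5468507, marked the killer lymphocytes. It was at 301.3 ± 13.7 CPM in NK cells and 239.8 ± 23.6 in CD8 T cells, with ranges that did not meet. Gamma-delta T (97.7 ± 25.1), CD4 conventional T (88.3 ± 18.3) and Treg cells (62.7 ± 4.54) lay below, and the first pair of these overlapped. NK cells held 47.3% of its UMIs, more than any other class. A Ctsw UMI was found in 83.6% of NK cells and 80.1% of CD8 T cells, against 3.06% of macrophages and 2.79% of B cells. The median cell of these classes held 10034.0, 10141.5, 7260.0 and 3211.0 UMIs. After thinning to 2000 UMIs the shares were 44.9% and 40.3%, against 0.901% and 1.60%. Cst7, which encodes cystatin F, an inhibitor of cathepsin C in such cells, was also highest in NK cells (248.1 ± 18.2 CPM) and CD8 T cells (206.2 ± 8.88), with 4.27 ± 0.916 CPM in macrophages. Below these the order differed from that of Ctsw: Treg cells had 116.5 ± 5.19 CPM of Cst7, gamma-delta T cells 51.3 ± 13.2 and CD4 conventional T cells 27.2 ± 5.09. Within NK cells the clusters ranged in Ctsw from 204.1 ± 23.2 to 356.2 ± 20.7 CPM. The CD8 T cluster led by Gzmk had 292.4 ± 27.0 CPM.

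The low levels of macrophage-type cathepsins in lymphocytes were set beside those of the complement genes C1qa, C1qb and C1qc, which macrophages make and T cells do not. The ratio of Ctsc to the summed C1q genes was 0.55 to 0.734 in CD8 T cells over the libraries and 0.625 to 0.725 in macrophages, overlapping ranges. Ctss and Lgmn had lower ratios in CD8 T cells than in macrophages, 1.37 to 1.73 against 2.18 to 2.65 for Ctss and 0.243 to 0.287 against 0.4 to 0.486 for Lgmn. Ctsb had a higher one, 0.543 to 0.621 against 0.379 to 0.423. Monocytes, which also hold much of this RNA, had higher ratios than either class. Theirs were 2.46 to 3.74 for Ctsb, 3.2 to 6.21 for Ctsc, 8.72 to 17.8 for Ctss and 1.25 to 1.85 for Lgmn. The ratios of Ctsd (0.29 to 0.424 against 0.026 to 0.0319) and Ctsw (0.4 to 0.742 against 0.000733 to 0.00123) in CD8 T cells lay far above those in macrophages. In neutrophils the ratio of Lgmn was 0.297 to 0.55, a range that spans that of macrophages. How much of the RNA of each gene in lymphocytes or neutrophils came from free RNA or attached cells was not tested.

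Across the 16 class means, the patterns of the genes fell into few shapes. On log2(CPM + 1), Ctss and Lgmn had a Pearson correlation of 0.953 and Ctsc and Ctss of 0.921, whereas Ctsw and Ctsz had -0.789 and Ctsd and Ctsh -0.463. Each class mean pools the same 4 libraries, so these values describe the classes and carry no test. Among all other genes reaching 50 CPM in some class, the pattern most like that of Ctsw was that of Il2rb (0.980), the IL-2 and IL-15 receptor beta chain, then Fasl (0.965), the death ligand, and Cd96 (0.960). Ctss was closest to Cd300c2 (0.953), Milr1 (0.95) and Cd68 (0.946), a lysosomal glycoprotein of macrophages. The nearest to Ctsc was Tgfbi (0.957), to Lgmn Cfb (0.964), to Ctsh Ly86 (0.971), to Ctsb Adam17 (0.936) and to Ctsz Rab14 (0.908). The best matches were weaker for Ctsl (Tom1, 0.866), Ctsd (Tbc1d2b, 0.857) and Ctsa (Ubtd1, 0.853, and the lysosomal membrane gene Lamp2, 0.852).

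Macrophages and monocytes were each made of 3 clusters, and these differed in cathepsin content. One macrophage cluster of 2581 cells, led by C1qa, Pf4 and Acp5, had 341.8 ± 49.7 CPM of Ctsd, against 82.7 ± 4.70 and 78.9 ± 6.26 in the other two. The same cluster had 1157.2 ± 91.1 CPM of Ctsz (373.2 ± 30.7 and 362.3 ± 31.2 in the others) and 2327.1 ± 255.7 of Lgmn (1490.2 ± 70.5 and 1497.9 ± 59.1). Its cells were shallow, with a median of 2225.0 UMIs against 12815.5 and 11774.0, so it weighs less in the class sums than its number of cells. The class levels of Ctsd and Ctsz, 103.9 ± 4.66 and 438.0 ± 30.6 CPM, still lay above those of both other clusters. The cluster made up 40.9% and 30.1% of cKO and 30.2% and 30.6% of WT macrophages. Ctss ran the other way, at 7039.2 CPM in this cluster and 9399.0 in the cluster with interferon-response genes. Among monocytes, a cluster of 1547 cells led by Gpnmb, Thbs1, Vegfa and Arg1 had 1134.1 ± 81.1 CPM of Lgmn and 136.4 ± 13.6 of Ctsd. The large Cxcl10 and Vcan cluster had 477.3 ± 27.0 CPM of Lgmn and 55.8 ± 5.89 of Ctsd. The F13a1 cluster had the lowest Lgmn of the 3, 146.3 ± 16.3 CPM. Such values describe clusters that were found in the same cells.

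**Figure D2:**
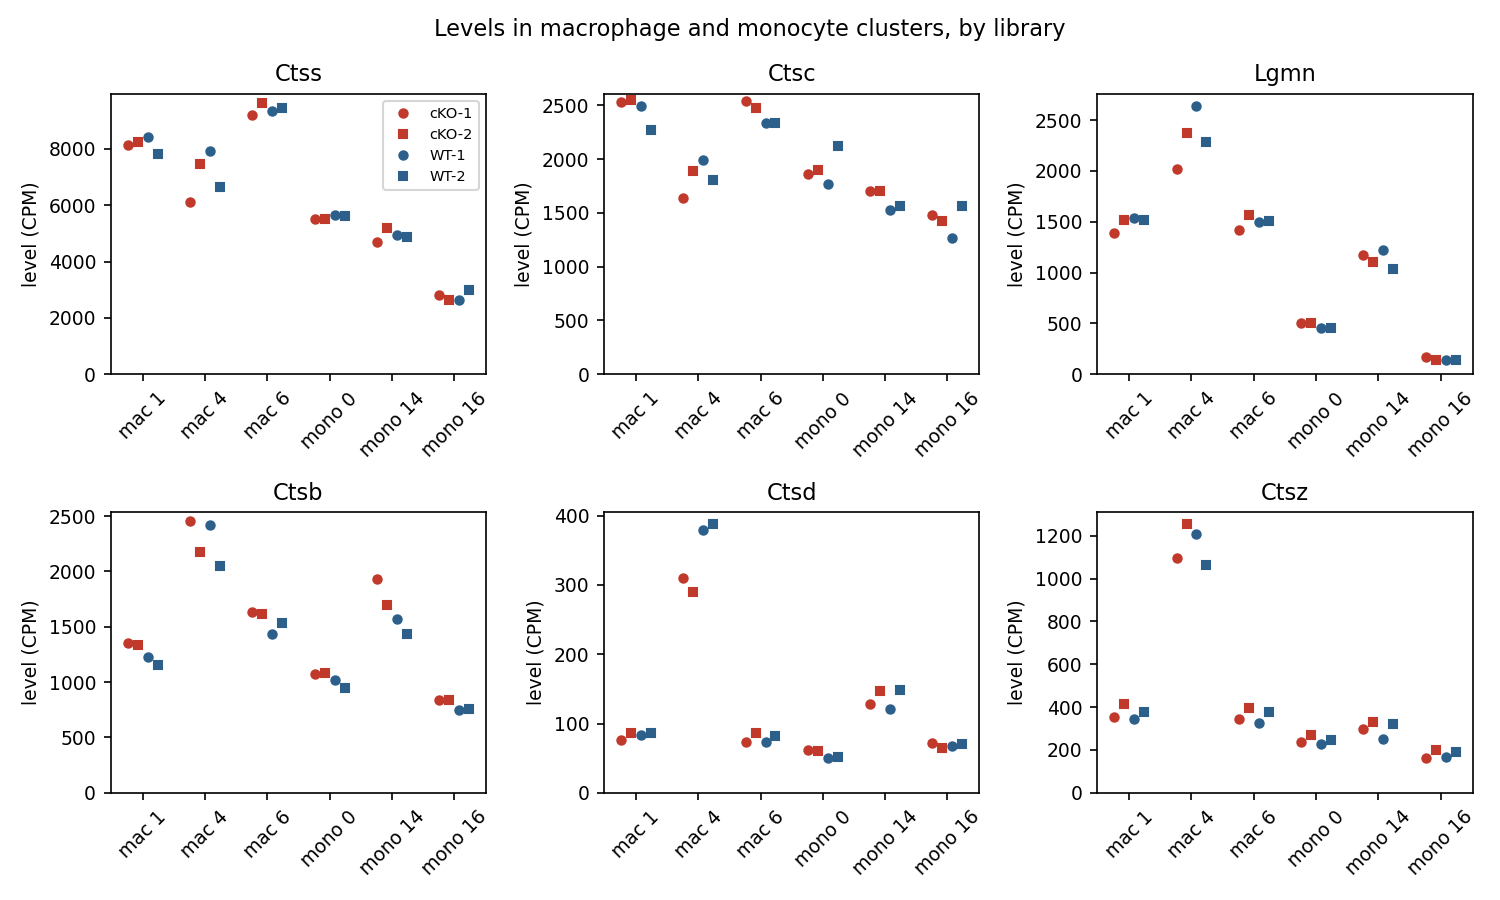
Level (CPM) of 6 genes in the macrophage clusters 1, 4 and 6 and the monocyte clusters 0, 14 and 16, 1 point per library (red cKO, blue WT; circles library 1, squares library 2). Macrophage cluster 4 (C1qa, Pf4) is highest for Ctsd, Ctsz, Lgmn and Ctsb in every library, and monocyte cluster 14 (Gpnmb) has more Lgmn and Ctsd than the other monocyte clusters.

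The effect of Trim25 loss was tested in each class with edgeR on UMIs summed per library, 2 cKO against 2 WT libraries, adjusted over all genes of the class. Of the 160 pairs of gene and class, 152 had counts enough for a test. None passed an adjusted p of 0.05. An unadjusted p under 0.05 was found for 38 of them (25.0%), and for 6.47% of the tests over all genes and classes; the genes share libraries and classes, so their tests are not independent. DESeq2 called 1, Ctsb in B cells. Without the filter on low counts, edgeR called 8 with all 4 libraries. In B cells these were Ctsb, Ctsc, Ctss and Lgmn. The others were Ctss and Lgmn in plasmacytoid DC, Ctsc in gamma-delta T cells and Ctss in mast cells or basophils. More of all genes passed there too. In B cells 66 were higher and 255 lower of 16882, against 1 and 22 of 8756 with the filter. In plasmacytoid DC they were 45 and 182 of 17116, against 6 and 56 of 9667. Gamma-delta T cells had 18 and 7 of 14303, and mast cells or basophils 52 and 18 of 12157, against 0 in each with the filter. With the filter, the lowest edgeR adjusted p was 0.0857, for Ctsb in B cells. Calls over all genes were few: 0.263% of genes tested in B cells, 0.278% in CD4 conventional T cells, 0.131% in CD8 T cells, 0.117% in Treg cells, 0.641% in plasmacytoid DC and 0 in each of the other 11 classes. Those 11 classes include macrophages, monocytes and NK cells. An exact permutation test of 2 libraries against 2 cannot give a p below 0.333.

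In macrophages, the class with the highest summed level of the 10 genes, the genotypes were close. Ctss was at 8174.9 and 8630.2 CPM in cKO macrophages and 8736.9 and 8358.0 in WT macrophages, with a log2 fold change of -0.02 ± 0.12 (SE) and an edgeR adjusted p of 0.987. The 95% interval reached from -0.29 to 0.24 on the log2 scale. Lgmn was at 1460.9 and 1604.9 CPM in cKO and 1604.8 and 1582.3 in WT macrophages. For both genes the libraries of the genotypes overlapped. Ctsb was at 1539.7 and 1497.2 CPM in cKO and 1397.6 and 1379.5 in WT macrophages, 0.13 ± 0.10 on the log2 scale, with an interval from -0.10 to 0.36 and an adjusted p of 0.896. Both cKO libraries were above both WT libraries for Ctsb and for Ctsc (2440.2 and 2466.9 against 2395.4 and 2256.0 CPM). That is 2 of 10 genes, and 17.8% of all genes tested in macrophages lay so. Ctsd was at 100.3 and 102.8 CPM in cKO and 101.8 and 110.7 in WT macrophages. In the C1qa and Pf4 cluster alone it was lower in both cKO libraries, 309.8 and 289.2 against 380.0 and 388.4 CPM, a log2 fold change of -0.30 ± 0.13 with an unadjusted p of 0.0325 and an adjusted p of 0.697.

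In monocytes, 6 of the 10 genes had both cKO values above both WT values, as did 16.2% of all genes. Lgmn was at 678.6 and 578.9 CPM in cKO and 525.5 and 484.7 in WT monocytes, a log2 fold change of 0.32 ± 0.13 with an unadjusted p of 0.0362 and an adjusted p of 0.908. Ctsd was at 87.2 and 79.9 CPM in cKO and 64.2 and 70.2 in WT monocytes (0.32 ± 0.11, adjusted p 0.892), and Ctsb at 1334.5 and 1183.7 against 1061.0 and 984.7 (0.30 ± 0.13, adjusted p 0.913). None passed the test over all genes. The Gpnmb cluster, rich in Lgmn and Ctsd, made up 36.0% and 22.7% of cKO and 16.8% and 15.2% of WT monocytes. Within that cluster the log2 fold changes were 0.03 for Lgmn, 0.05 for Ctsd and 0.29 for Ctsb. Within the Cxcl10 and Vcan cluster they were 0.16, 0.28 and 0.16, and within the F13a1 cluster 0.19, 0.01 and 0.19. The 9 macrophage markers summed to 2070.6 and 1830.5 CPM in cKO and 1665.1 and 1477.1 in WT monocytes, and all 9 were higher on average in cKO. The part of these shares and markers in the difference was not tested. Ctss, by contrast, was at 4728.9 and 5026.6 CPM in cKO and 5037.3 and 5009.8 in WT monocytes.

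Whether the genotype acted differently in macrophages and monocytes was tested as an interaction over 13962 genes, of which 0.0501% passed. Ctsd differed by -0.37 ± 0.09 on the log2 scale (macrophages minus monocytes; unadjusted p 0.00134, edgeR adjusted p 0.259) and Lgmn by -0.36 ± 0.10 (unadjusted p 0.00263, adjusted p 0.354). Neither passed with all libraries. Without the library cKO-2 both did, with adjusted p 0.0143 for Ctsd and 2.56e-07 for Lgmn, where 416 genes passed in place of 7. Without cKO-1 the adjusted p were 0.429 and 0.609.

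**Figure D3:**
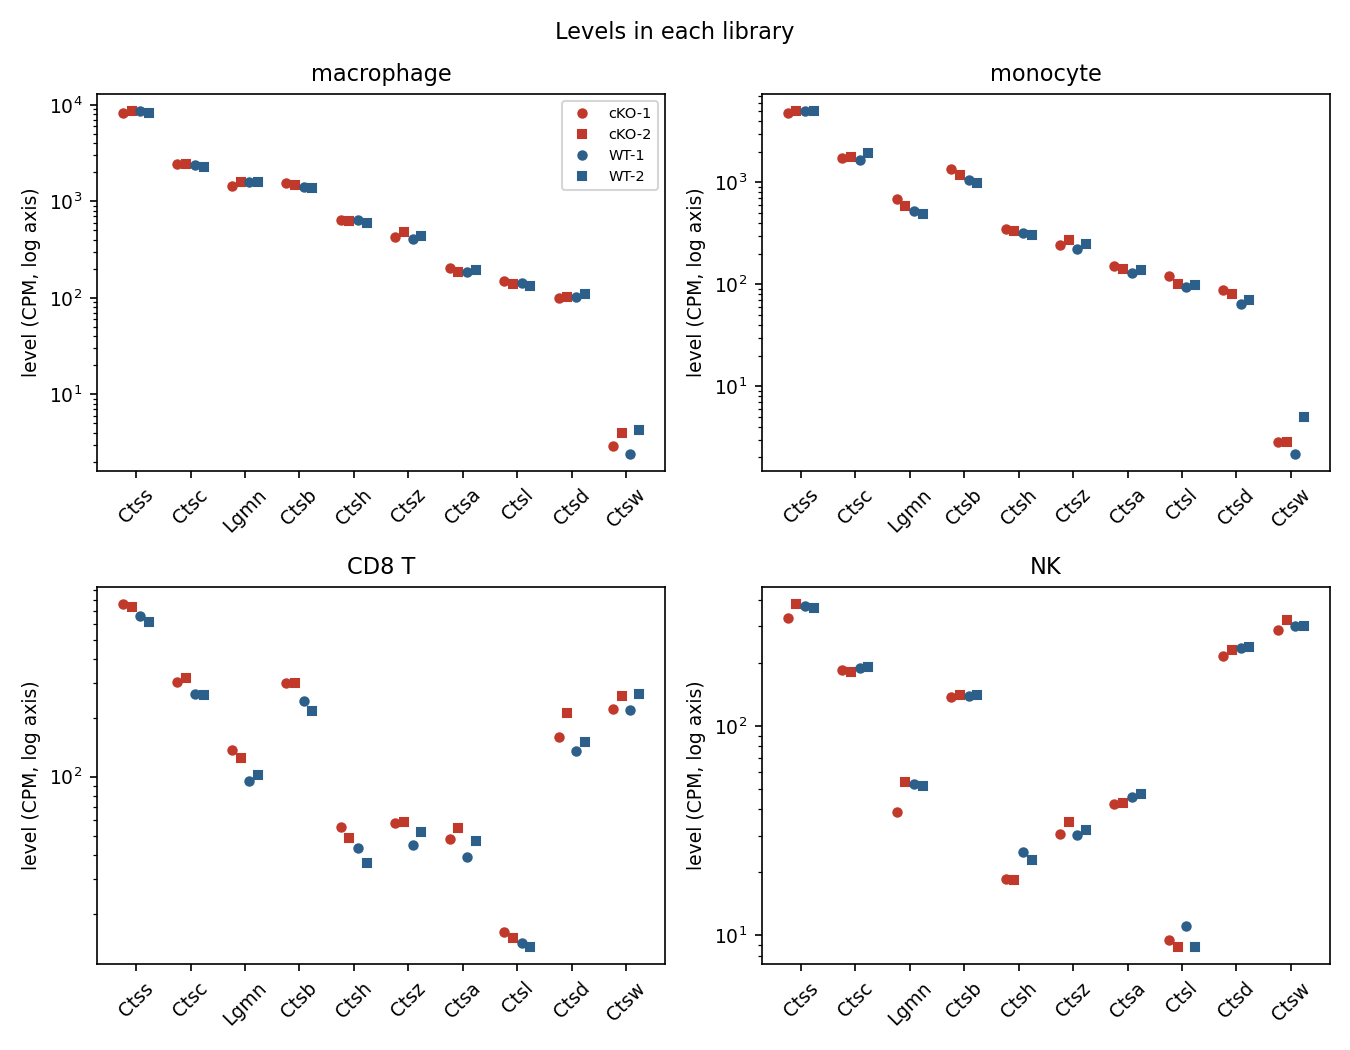
Level (CPM, log axis) of the 10 genes in macrophages, monocytes, CD8 T cells and NK cells, 1 point per library (red cKO, blue WT; circles library 1, squares library 2). The cKO and WT points lie close in macrophages and NK cells, and cKO points are above WT points for Lgmn, Ctsb and Ctsd in monocytes and CD8 T cells.

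In CD8 T cells all 10 log2 fold changes were above 0, with a median of 0.287 against 0.00133 over all 11467 genes tested. For 9 of them both cKO libraries were above both WT libraries, as for 16.3% of all genes. Lgmn was at 136.3 and 124.7 CPM in cKO and 95.02 and 101.7 in WT CD8 T cells (0.43 ± 0.11, adjusted p 0.181), and Ctsb at 299.9 and 301.3 against 243.1 and 217.2 (0.41 ± 0.11, adjusted p 0.184). Ctsd was at 160.3 and 211.9 CPM in cKO and 135.0 and 149.6 in WT (0.41 ± 0.14, adjusted p 0.357, and 0.18 without cKO-2), and Ctsh at 55.1 and 48.8 against 43.0 and 36.5 (0.41, adjusted p 0.32). None passed with all 4 libraries. With 1 library left out, Ctsb ranged from 0.34 to 0.48, Ctsd from 0.18 to 0.61 and Lgmn from 0.37 to 0.49. Ctsb passed without WT-1, and Ctsd and Lgmn passed without WT-2. Those fits assume that the lone WT library varies like the cKO group, and more genes of the class passed in them. Ctsw, the cathepsin typical of these cells, was at 220.8 and 256.8 CPM in cKO and 218.2 and 263.4 in WT CD8 T cells. Its log2 fold change was 0.01 ± 0.13, with a 95% interval from -0.27 to 0.29, and the genotypes overlapped. The 9 macrophage markers moved as the other cathepsins did, with a sum of 977.8 and 946.4 CPM in cKO and 739.2 and 723.4 in WT CD8 T cells, 8 of 9 higher in cKO and none at 0. Their part in the cathepsin values was not tested. The Gzmk cluster, with more Ctss than the class (1585.9 CPM), was 23.3% and 15.7% of cKO and 27.3% and 31.1% of WT CD8 T cells. Fitted alone, it had log2 fold changes of 0.75 for Ctsb, 0.65 for Lgmn, 0.62 for Ctsc and -0.01 for Ctsd. The largest CD8 T cluster (1065 cells) had 0.32, 0.53, 0.18 and 0.34 for the same genes, and the remaining one (554 cells) 0.25, 0.08, 0.12 and 0.40. None passed in any of the 3, and the differences between clusters were not tested.

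The other T cell classes looked alike. All 10 genes were above 0 in CD4 conventional T cells (median 0.349) and in Treg cells (median 0.311). In CD4 cells 8 were higher in both cKO libraries, against 18.1% of all genes, and in Treg cells 6, against 16.3%. Ctsb was at 604.2 and 496.6 CPM in cKO and 359.9 and 432.0 in WT Treg cells (0.49 on the log2 scale, adjusted p 0.333), and Ctsz at 147.1 and 167.3 against 89.7 and 125.6 (0.56, adjusted p 0.407). Ctsw was at 95.4 and 109.3 CPM in cKO and 66.6 and 82.0 in WT CD4 cells (0.46 ± 0.20, adjusted p 0.588), and Ctsb at 367.7 and 326.9 against 251.3 and 298.1 (0.34, adjusted p 0.594). No gene of the family passed the test in either class. Macrophage markers were again higher in cKO, at 1281.0 and 1183.1 against 1075.9 and 941.9 CPM in CD4 cells (7 of 9 markers) and 1578.6 and 1372.6 against 945.8 and 1241.9 in Treg cells (8 of 9), and their part was not tested. In gamma-delta T cells all 9 genes tested were above 0. Ctsc passed there only without the filter on low counts or without WT-2. The latter fit assumes that the lone WT library varies like the cKO group.

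NK cells, with the highest Ctsw, showed little. Ctsw was at 286.1 and 319.5 CPM in cKO and 300.2 and 299.3 in WT NK cells, a log2 fold change of 0.05 ± 0.10 with a 95% interval from -0.18 to 0.28. Ctsd was at 214.9 and 229.3 CPM in cKO and 236.7 and 238.6 in WT NK cells (-0.06). Ctsh was lower in both cKO libraries, 18.6 and 18.4 against 25.1 and 22.8 CPM, a change of -0.34 ± 0.12 with an unadjusted p of 0.0189 and an adjusted p of 0.745. In all, 4 of 10 genes were lower in both cKO libraries, and 22.9% of all genes were. Macrophage markers summed to 276.0 and 355.2 CPM in cKO and 373.2 and 334.3 in WT NK cells.

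**Figure D4:**
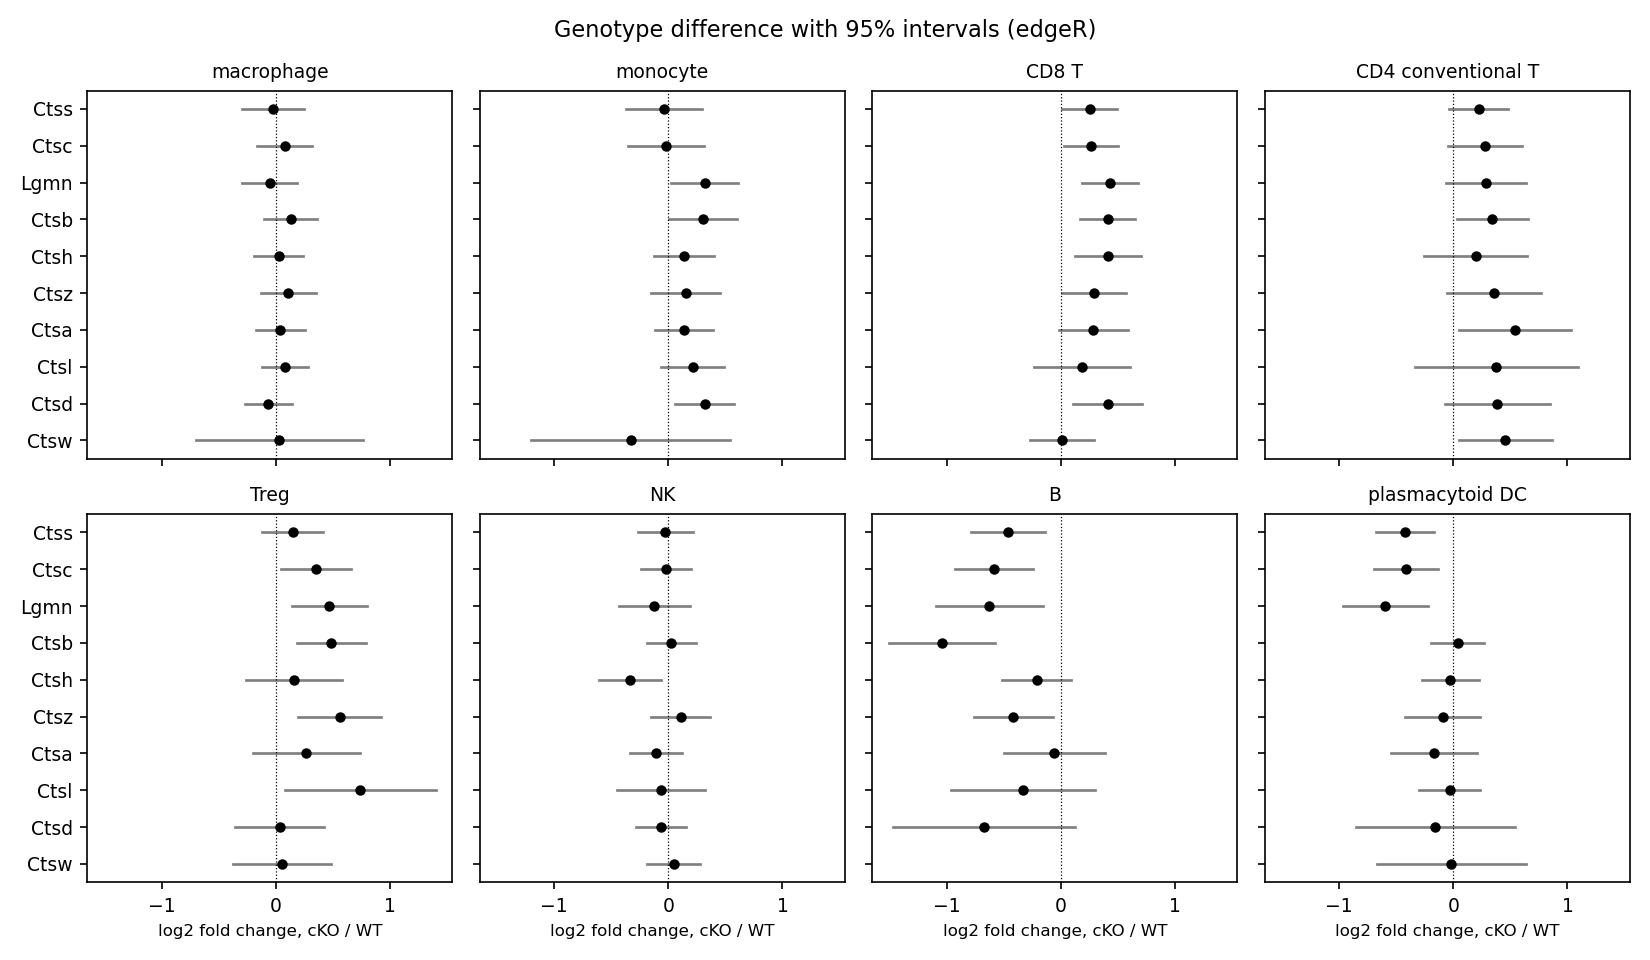
Log2 fold change of each gene, cKO over WT (points), with 95% intervals from edgeR (lines), in 8 classes; the dotted line is 0. Most points lie near 0 in macrophages and in NK cells, where Ctsh is at -0.34. In the 3 T cell classes most lie to the right, with Ctsw in CD8 T cells (0.01) and Ctsd in Treg cells (0.03) at about 0. They lie to the left in B cells and, for Ctss, Ctsc and Lgmn, in plasmacytoid DC.

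B cells had the opposite sign. In plasmacytoid DC 9 of 10 genes were below 0 too, but with a median of only -0.126. In B cells all 9 genes tested were below 0, with a median of -0.462. For 7 both cKO libraries were below both WT libraries, against 21.7% of all genes. Ctsb was at 129.0 and 126.2 CPM in cKO and 333.0 and 198.9 in WT B cells, a log2 fold change of -1.04 ± 0.21 with an edgeR adjusted p of 0.0857. With 1 library left out it ranged from -1.35 to -0.66 on the log2 scale. It passed in each of those fits, but they assume that the lone library varies like the other group. Many more genes of the class passed in them than with all 4 libraries. With DESeq2 and all 4 libraries Ctsb passed (adjusted p 0.00605), where 11 genes were higher and 40 lower in B cells. The Ctsb UMIs were concentrated in few cells. The richest 5% of cells held 55.2% and 43.3% of the Ctsb UMIs of cKO and 83.5% and 58.3% of those of WT B cells, while 26.3% and 29.8% of cKO and 22.2% and 28.8% of WT cells had any. Ctsc was at 298.7 and 275.5 CPM in cKO and 498.4 and 371.0 in WT B cells (-0.59, adjusted p 0.175). Without WT-2, Ctsc, Ctss and Lgmn passed in B cells as well, in a fit with the same assumption on the lone library. Macrophage markers summed to 456.6 and 603.0 CPM in cKO and 1348.8 and 644.6 in WT B cells, none of 9 higher in cKO and none at 0, and their part was not tested.

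In plasmacytoid DC, 3 of the 10 genes, Ctss, Ctsc and Lgmn, were lower in both cKO libraries, as were 21.5% of all genes. Ctss was at 1310.5 and 1409.6 CPM in cKO and 1700.4 and 2013.8 in WT cells (-0.42 ± 0.12, adjusted p 0.191). Lgmn was at 144.3 and 127.2 CPM in cKO and 176.6 and 236.8 in WT cells (-0.59 ± 0.17, adjusted p 0.22), and Ctsc at 313.5 and 289.5 against 401.5 and 415.9 (-0.42, adjusted p 0.284). Ctss and Lgmn passed in edgeR with no filter on low counts (adjusted p 0.0195 and 0.0244). They also passed without WT-1, a fit that assumes that the lone WT library varies like the cKO group. With 1 library left out, Ctss ranged from -0.54 to -0.29 and Lgmn from -0.79 to -0.35. Without WT-2 the log2 fold change of Lgmn was -0.35. The 2 cathepsins most typical of these cells were close between genotypes: Ctsl at 876.2 and 1019.6 CPM in cKO and 925.3 and 1050.7 in WT (-0.03 ± 0.12), and Ctsh at 758.4 and 815.3 against 803.9 and 831.2 (-0.03). Macrophage markers were at 216.8 and 189.0 CPM in cKO and 407.9 and 893.8 in WT plasmacytoid DC, none of 9 higher in cKO. The richest 5% of cells held 29.3% and 33.0% of Lgmn UMIs in cKO and 35.8% and 51.6% in WT. The part of these cells in the difference was not tested.

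**Figure D5:**
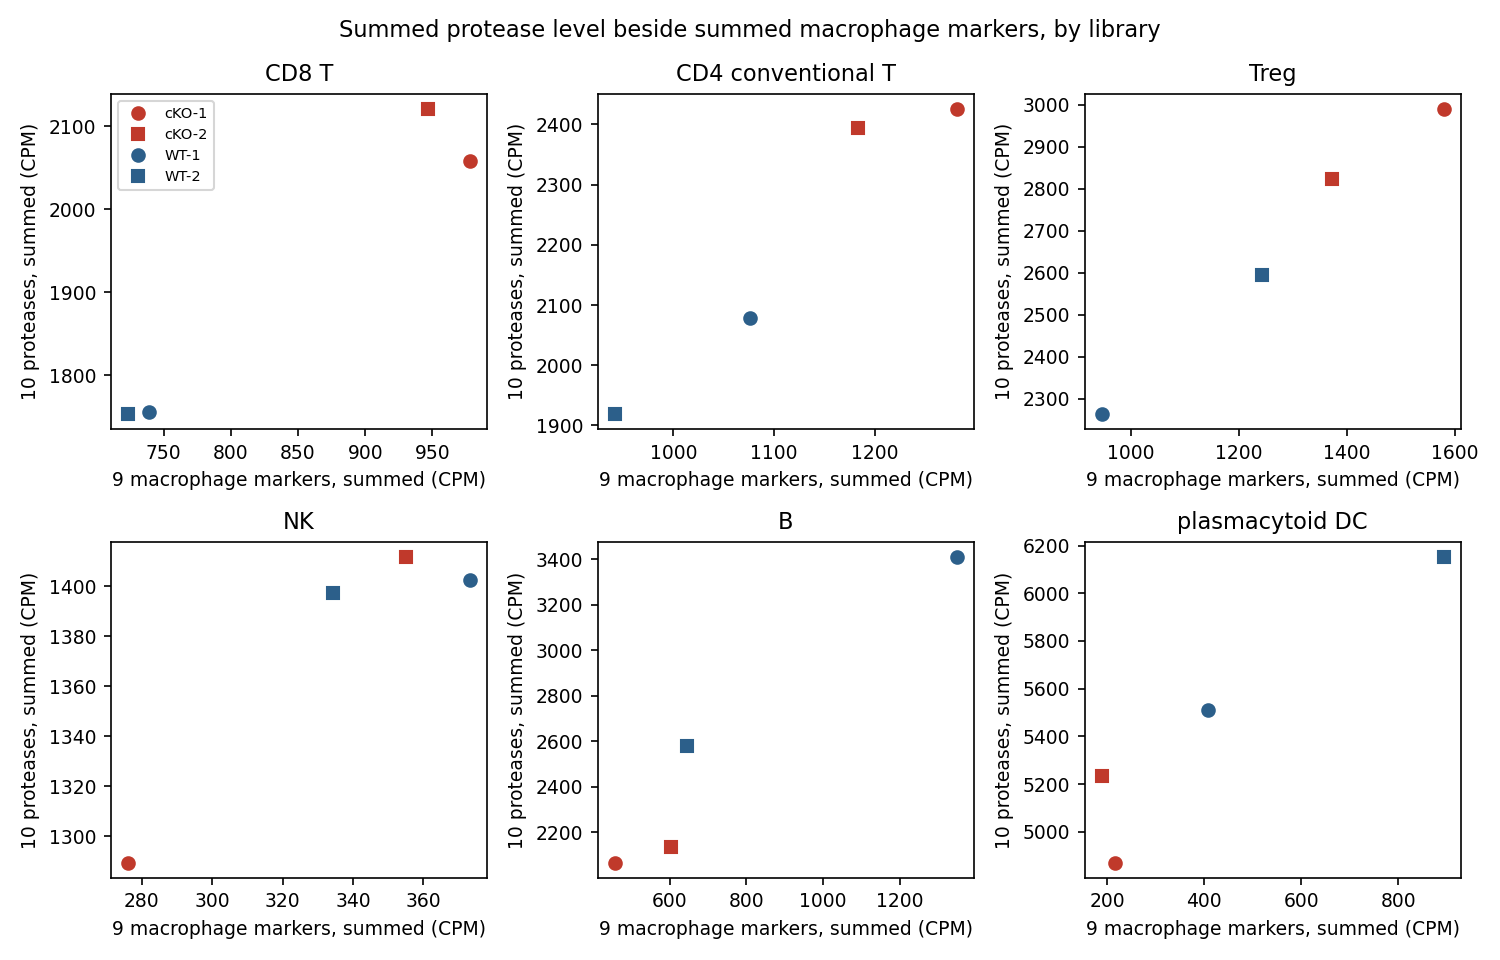
Summed level of the 10 genes (CPM, vertical) beside the summed level of 9 macrophage markers (CPM, horizontal) in 6 lymphoid and plasmacytoid classes, 1 point per library (red cKO, blue WT; axes do not start at 0). In CD8 T, CD4 T and Treg cells the cKO libraries are higher on both axes, and in B cells and plasmacytoid DC they are lower on both.

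Smaller classes gave wide errors. Neutrophils had 8 of 9 tested genes above 0. In mast cells or basophils 5 of 6 were, among them Ctss, but there the macrophage markers were at 1261.9 and 553.8 CPM in cKO and 528.9 and 344.7 in WT libraries, with Mrc1 at 0. None passed with all 4 libraries and the filter on low counts. Ctss was at 2402.3 and 879.5 CPM in cKO and 352.6 and 461.7 in WT mast cells or basophils (edgeR adjusted p 0.217). It passed with no filter (log2 fold change 2.06, edgeR adjusted p 0.000437), where 52 genes of the class were higher and 18 lower of 12157. It also passed without cKO-2, WT-1 or WT-2. Ctsh and Lgmn in mast cells or basophils passed without cKO-2, both higher in cKO. Ctss in fibroblast or tumour-like cells also passed without cKO-2, but was lower in cKO in that fit. All these fits with a library left out assume that the lone library varies like the other group.

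Genes that work with the cathepsins were followed in 7 lists: other cathepsins, their inhibitors, lysosomal hydrolases, lysosomal membrane and proton pump, lysosomal sorting and transcription, antigen presentation, and granule serine proteases. None of their genes passed in macrophages, monocytes or NK cells. In macrophages, 15 of 25 hydrolases were above 0 (median log2 fold change 0.0528, against 0.00119 over all genes), 11 of 19 membrane and pump genes (0.0308), 9 of 13 antigen presentation genes (0.12), 3 of 13 sorting and transcription genes (-0.0616), 1 of 8 inhibitors (-0.087), 1 of 3 other cathepsins (-0.176) and 2 of 9 granule proteases (-0.114). In monocytes 11 of 13 antigen presentation genes were above 0 (0.267, against 0.00525 over all genes). CD8 T cells had 18 of 18 membrane and pump genes above 0 (0.17, against 0.00133 over all genes), 19 of 25 hydrolases (0.147) and 10 of 12 antigen presentation genes (0.324). In plasmacytoid DC 3 of 25 hydrolases were above 0 (-0.189). NK cells had 3 of 10 granule proteases above 0 (-0.0929).

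The list genes with the largest fold change in macrophages did not pass. Cd74, the invariant chain that cathepsin S degrades, was at 3793.7 and 4917.3 CPM in cKO and 3360.5 and 3511.9 in WT macrophages, a log2 fold change of 0.34 ± 0.15 with an edgeR adjusted p of 0.788. It was 0.53 without cKO-1 and 0.14 without cKO-2. Acp5, the tartrate-resistant acid phosphatase, was at 167.3 and 137.5 CPM in cKO and 117.3 and 132.1 in WT (0.29, adjusted p 0.788), and Tfeb at 24.4 and 24.0 against 28.2 and 31.4 (-0.30, adjusted p 0.788). Ctsk, the protease of osteoclasts, was at 1.03 and 0.619 CPM in cKO and 0.788 and 17.5 in WT macrophages, so WT-2 alone was high (-3.48, adjusted p 0.777). The rest were near the limit of counting. Atp6v0d2, a proton pump subunit, was at 2.36 and 1.91 CPM in cKO and 1.35 and 6.98 in WT (-0.97), and the inhibitor Serpinb1a at 0.639 and 1.76 against 0.563 and 2.93 (-0.54). Gzmk was at 0.541 and 0.619 CPM in cKO and 0.394 and 0.169 in WT macrophages (1.03).

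Among T cells, 3 list genes passed. Gzmd, a granzyme, had its highest mean, 783.5 CPM, in NK cells, and the part of NK cell RNA in its CD8 T values was not tested. In CD8 T cells Gzmd was at 13.1 and 10.0 CPM in cKO and 27.2 and 28.9 in WT. That is a log2 fold change of -1.27 ± 0.19 with an edgeR adjusted p of 0.0212. It did not pass without cKO-2 (adjusted p 0.197) or with the cathepsins kept among the clustering genes (0.0646). Gzmb and Cd74 lie outside the rule for naming genes and were chosen after their values were seen. Gzmb, the main granzyme of killer cells, fell to 1936.3 and 2428.6 CPM in cKO Treg cells, against 3800.9 and 3577.9 in WT Treg cells (-0.74 ± 0.13, adjusted p 0.0069, 0.465 without cKO-1 and 0.133 at Leiden resolution 2). Cd74 was at 596.5 and 666.4 CPM in cKO and 394.8 and 366.9 in WT CD4 conventional T cells (0.74 ± 0.14, adjusted p 0.00877, 0.113 without cKO-2, 0.081 at resolution 2 and 0.655 with a mitochondrial limit of 10%). All 3 had no overlap between genotypes, but they were picked for passing a test on the same values. Both cKO libraries were lower for 2539 of 11467 genes in CD8 T and for 1691 of 9365 in Treg cells. In CD4 cells both were higher for 18.1% of genes. Cd74 was much higher in some other classes, at 7876.8 CPM in type 1 DC, 7220.4 in B cells and 3895.9 in macrophages. Macrophage markers were also higher in cKO CD4 cells, and the part of other cells' RNA in the Cd74 difference was not tested. In CD8 T cells Gzmb was at 3110.9 and 3619.1 CPM in cKO and 2520.6 and 2681.9 in WT, so it was higher in both cKO libraries there. Ctsc, whose product activates granzymes, was above 0 in both CD8 T and Treg cells without passing.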

How the data were processed

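The data were single-cell RNA libraries of CD45-positive cells sorted from tumours, 2 cKO and 2 WT. The authors deposited 1 matrix of raw, whole-number UMI counts (genes by cell barcodes) for each library. Per the labels' protocols the libraries were made with a Chromium 3' v3 kit; the submitters' processing notes name Cell Ranger, STAR and mm10, without versions, annotation or settings for calling cells. Barcodes in the files are 20 bases long, which is longer than the cell barcodes of that kit, so the kit is uncertain. Gene positions are those of GENCODE vM21 (GRCm38, equal to mm10). The 10 genes, the gene lists and the tests were chosen with earlier results of these data known.

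Kept cells had 300 genes or more, 500 UMIs or more, and no more than 15% of UMIs from mitochondrial genes. Scrublet's automatic threshold marked 0 cells in all 4 libraries and so did not work. Cells scoring above 0.2 and clusters with a median above 0.1 were taken as mixed droplets; these limits were set once the scores had been seen. Clustering used python 3.11.15, scanpy 1.11.5 and leidenalg 0.10.2 on log-normalized counts of 2000 variable genes, 30 components, 15 neighbours and Leiden resolution 1. The variable genes excluded the 10 genes, Trim25, Vsir and Cd4, and T and NK clusters were then re-clustered separately. A cluster took a class name with at least 3 markers seen in at least 10% of its cells and, among T and NK clusters, a score margin of at least 0.2, thresholds chosen after the scores were seen. Clusters of low depth with no marker among their top 10 genes stayed unnamed.

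For each class, raw counts of all its cells were added up within a library, since cells are not replicates. Classes with at least 20 cells in every library were compared with edgeR 4.0.16, run in R 4.3.3 (TMM, filterByExpr, two-sided quasi-likelihood F test, Benjamini-Hochberg over all genes of the class, threshold 0.05). The test recovered most of the larger changes put into data simulated from the real macrophage means, with a single fixed spread for all genes. It was not tried on other classes or on changes as small as most of those above. Named genes were the 10 genes in every class, list genes past the threshold in macrophages, monocytes, CD8 T or NK cells, otherwise the list's largest fold change in macrophages, and the 3 genes of most alike pattern for each. Shares and floors cover counting error only. Alternatives were DESeq2 size factors, DESeq2 1.42.0, no filter, a replicate block, each library left out, Leiden resolution 2, the genes kept for clustering, a mitochondrial limit of 10%, doublets kept, single clusters and per-cell means.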

Additional observations from a re-analysis of the deposited data

How the results depend on the processing

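Of 550 alternative values for 38 fold changes, 491 kept direction and side of the threshold, 19 passed it, 7 lost it and 33 changed sign. With 1 library left out, log2 fold changes that changed sign ranged from -0.14 to 0.020 for Ctsd, -0.071 to 0.029 for Ctss, -0.13 to 0.025 for Lgmn, -4.42 to 0.086 for Ctsk, -1.46 to 1.11 for Serpinb1a and -1.72 to 0.68 for Atp6v0d2 in macrophages. In other classes they ranged from -0.13 to 0.036 for Ctss in monocytes, -0.13 to 0.17 for Ctsw in CD8 T cells, -0.027 to 0.12 for Ctsw in NK cells, and -0.085 to 0.040 for Ctsh and -0.15 to 0.088 for Ctsl in plasmacytoid DC. In single clusters, Ctsc (-0.054), Ctsd (0.053) and Ctss (0.018 and 0.0090) in macrophages and Ctss (0.027) in monocytes changed sign. In single T and NK clusters, fitted after seeing the data, so did Ctsd (-0.010) and Ctsw (-0.078) in CD8 T cells, and Ctsd (0.078, 0.038 and 0.13) and Ctsw (-0.015, -0.11 and -0.0088) in NK cells. Sign changes were also seen for Ctss in monocytes (0.024) and Ctsw in CD8 T cells (-0.093) at resolution 2, Ctss in monocytes with the 10 genes kept for clustering (0.012), Ctsw in CD8 T cells with a 10% mitochondrial limit (-0.0029) and Ctsl in plasmacytoid DC with doublets kept (0.0042). The cause was not tested. Other values moved by over 1.5 times without 1 library: Ctsb in B (-0.66) and CD4 cells (0.21), Ctsc in B cells (-0.39) and Ctsz in Treg cells (0.33) without WT-1, Ctsz in Treg cells (0.84), Tfeb (-0.20) and Gzmk (0.57) in macrophages without WT-2, Acp5 (0.19) and Gzmk (1.73) without WT-1, Acp5 (0.15) without cKO-1, and Ctsd in NK cells (-0.10 to -0.021). The interaction without 1 library ranged from -0.42 to -0.31 for Ctsd, -0.51 to -0.20 for Lgmn, -0.036 to 0.25 for Ctsc, -0.0032 to 0.061 for Ctss and -0.064 to 0.0074 for Ctsz.

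Counts of genes past the threshold depended more on settings. With DESeq2 they were 51 in B, 13 in CD4, 30 in CD8 T, 6 in NK, 4 in Treg, 1 in cDC1, 18 in cDC2, 11 in fibroblast or tumour-like, 29 in macrophage, 2 in mast, 26 in monocyte, 1 in non-classical monocyte and 41 in plasmacytoid DC classes. With no filter they were 321, 65, 230, 132, 36, 17, 152 and 176 in the first 8 of these, and 25 in gamma-delta T, 70 in mast, 52 in migratory DC, 220 in monocyte, 24 in neutrophil, 32 in non-classical monocyte and 227 in plasmacytoid DC classes. Resolution 2 gave 11 in CD4, 3 in CD8 T, 1 in Treg and 3 in gamma-delta T; the genes kept for clustering 40 in CD4, 4 in CD8 T and 2 in cDC2; the 10% limit 10 in CD4, 24 in CD8 T, 2 in cDC2, 4 in fibroblast or tumour-like, 4 in gamma-delta T, 1 in macrophage and 7 in mast classes; doublets kept 59 in B and 0 in plasmacytoid DC.

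The difference between cKO-1 and cKO-2 was correlated over genes with the difference between WT-1 and WT-2. The correlations ran from -0.108 (monocytes) to 0.0915 (Treg), so the numbers were not taken as pairs. With 2 pairs this is no strong check. The replicate block gave 0 genes in B, 62 in CD4, 89 in CD8 T, 4 in NK, 25 in Treg, 7 in cDC2, 20 in fibroblast or tumour-like, 4 in macrophage, 20 in mast, 25 in migratory DC, 48 in neutrophil and 135 in plasmacytoid DC classes, and none of the 10 genes. Crossed pairing, chosen after seeing the data, gave 93 in B, 72 in CD4, 93 in CD8 T, 11 in cDC2, 1 in gamma-delta T, 92 in macrophage, 54 in monocyte, 9 in neutrophil and 42 in non-classical monocyte classes.

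Without 1 library, where the lone sample is assumed to vary like the other group, counts were 136 to 410 in B, 33 to 131 in CD4, 8 to 280 in CD8 T, 28 to 454 in NK, 8 to 41 in Treg, 0 to 17 in cDC1, 3 to 142 in cDC2, 1 to 142 in fibroblast or tumour-like, 7 to 49 in gamma-delta T, 9 to 47 in macrophage, 20 to 77 in mast, 17 to 123 in migratory DC, 0 to 77 in monocyte, 9 to 29 in neutrophil, 0 to 16 in non-classical monocyte and 116 to 164 in plasmacytoid DC classes.

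Macrophage levels moved at resolution 2 to 1597.6 CPM for Ctsb, 8016.0 for Ctss and 1673.6 for Lgmn, and with the 10 genes kept for clustering to 1565.6, 8079.0 and 1661.2. Means of per-cell values were 234.7 for Ctsa, 1711.4 for Ctsb, 2079.3 for Ctsc, 7792.5 for Ctss, 650.7 for Ctsz and 1788.4 for Lgmn in macrophages and 338.0 for Ctsw in NK cells. Depth limits the smallest classes most: Ctsd in mast cells or basophils rested on 43 to 65 UMIs a library.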
